A study of Mus musculus with 6 samples.

Results

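The lysosomal proton pump, the cathepsins and the main lysosomal membrane proteins were followed as a group of 47 genes in unstimulated bone marrow-derived macrophages (BMDMs) with and without myeloid *Scd2*, the gene of a fatty acid desaturase. The 47 members were taken by gene symbol from the 40481 genes of the count table, and all of them were among the 14778 genes tested. They hold 7 subunits of the membrane part of the pump (V0), 8 subunits of its cytosolic part (V1), 2 accessory proteins, 14 proteases, 6 other hydrolases, 8 membrane proteins and 2 luminal proteins.

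RNA sequencing was done on 3 libraries labelled WT and 3 labelled Scd2-KO. The Scd2-KO cells came from mice with floxed *Scd2* alleles crossed to lysozyme M-Cre mice (*Scd2*-m/-m), so that deletion is driven by a promoter active in myelomonocytic cells. Mice of both sexes and of several months of age were used in the study, but the labels give no age, sex or batch of a library, nor whether the wild-type mice carried floxed alleles or Cre. Marrow cells of both genotypes were grown to macrophages in CMG-conditioned medium and received no further treatment. No label says that the 3 libraries of a genotype came from separate animals, so the p-values measure the spread between these libraries, which may be technical.

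The lysosome is the acidic compartment in which macrophages degrade what they engulf and what autophagy delivers. Its V-type ATPase pumps protons across the membrane with energy from ATP hydrolysed by V1, while V0 forms the proton channel, and most cathepsins and other hydrolases need the low pH to work. Heavily glycosylated membrane proteins such as LAMP1 and LAMP2 line the compartment, and transporters carry the products of digestion out. Many genes of the pump and the hydrolases share a short promoter sequence that the factors TFEB, TFE3 and MITF can bind.

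The libraries held between 46285176 and 57629638 counts on genes. *Scd2* itself stood at 66.9, 77.8 and 62.7 CPM (counts scaled to the size of each library) in the wild-type libraries and at 59.5, 38.0 and 39.8 CPM in the *Scd2*-m/-m libraries. The deleted gene was lower on average but did not pass the test (log2 fold change -0.59, SE 0.19, FDR = 0.1), and *Scd2*-m/-m replicate 1 lay close to the wild-type range. Without that library the log2 fold change of *Scd2* was -0.83 (FDR = 8.87e-05). In separate wells the paper measured a much deeper loss of *Scd2* transcript in macrophages of this genotype. Why the loss was smaller in these libraries was not tested. Counts over the gene cannot show which exons were deleted, and a lower share of deleted cells cannot be told apart here from less RNA per cell. *Lyz2*, the gene whose locus carries the lysozyme M-Cre, fell from a mean of 22751 to 9029 CPM (log2 fold change -1.33, FDR = 6.42e-08).

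In *Scd2*-m/-m macrophages 12 of the 47 lysosomal genes were higher and 2 were lower at an FDR below 0.05, and 33 were not called. Of all genes tested, 9.65% were called higher and 7.84% lower, against 25.5% and 4.26% of the members. The changes were small. Only *Ctse* changed by more than 1 on the log2 scale, 2 members exceeded 0.5, and none reached the log2 fold change of 2 that the study also asked for (0.697% of all genes tested passed that size, and 0.663% both the size and the FDR). The median log2 fold change was 0.12 over the members and 0.0039 over all genes tested. Libraries of the 2 genotypes did not overlap for 29 members, or 61.7%, against 34.9% of all genes tested. *Scd2*-m/-m cells had the higher values for 23 of them and the lower for 6. The members had a median level of 393 CPM in wild-type cells, while the genes tested reach down to far scarcer ones. These shares of calls and of separate groups therefore compare sets of unlike abundance. The count of calls depended on single libraries. It fell to 7 without wild-type replicate 2 and to 8 without *Scd2*-m/-m replicate 2, all of them higher, and without *Scd2*-m/-m replicate 1 it was 13, again all higher. Calls over all genes tested fell as well, from 2585 to 1490 without wild-type replicate 2 and to 1440 without *Scd2*-m/-m replicate 2.

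**Figure D1:**
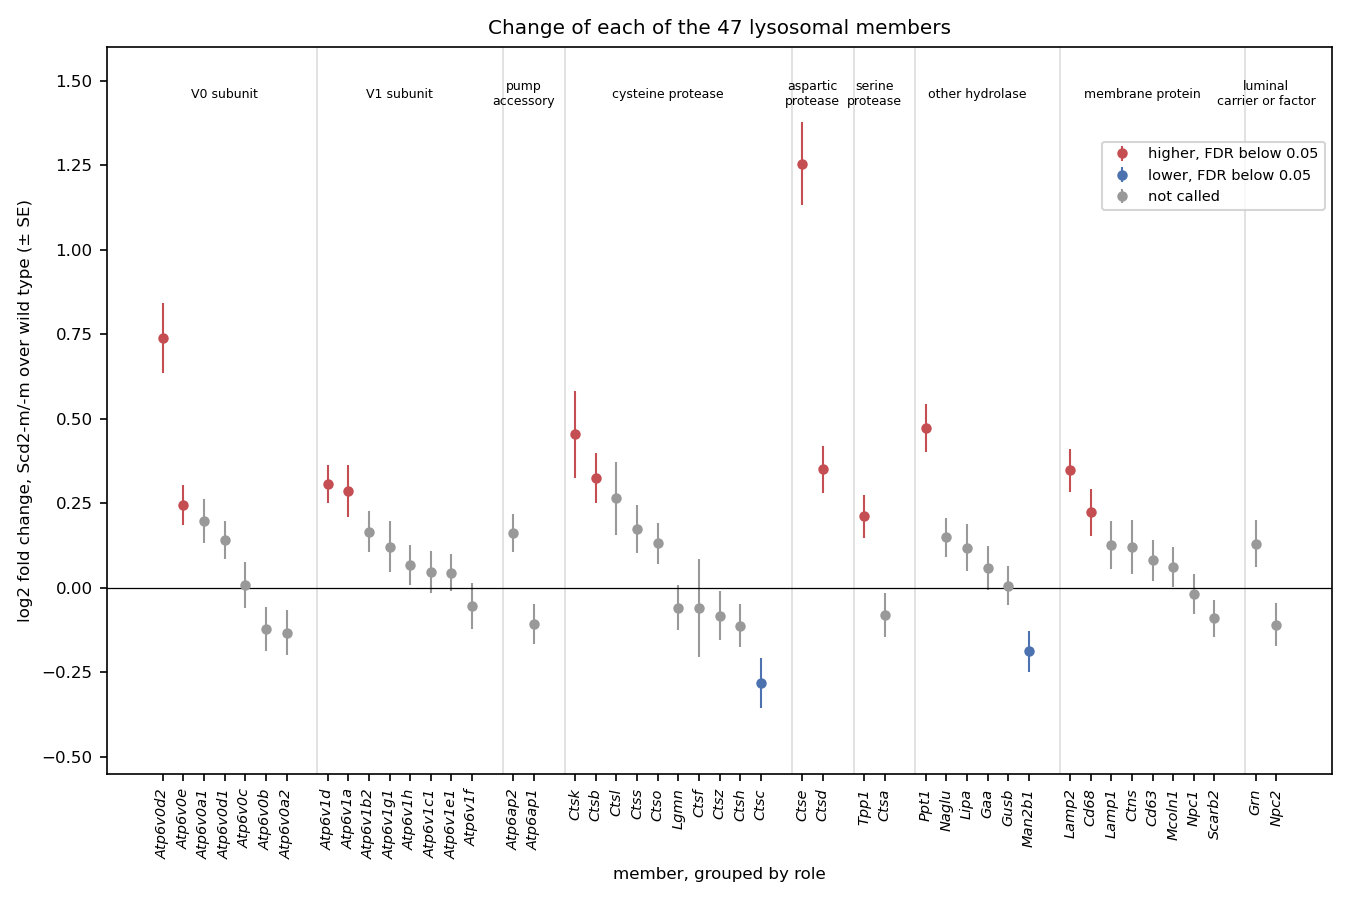
Log2 fold change of each of the 47 members in *Scd2*-m/-m over wild-type macrophages, with bars for the standard error, grouped by role (vertical axis, log2; horizontal axis, gene). The 12 genes called higher are red, the 2 called lower are blue and the other 33 are grey. *Ctse* at 1.26 and *Atp6v0d2* at 0.74 stand above the rest, which lie between -0.28 and 0.47.

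Promoter windows from RefSeq (GRCm38.p6), 250 bases before to 50 after the start site, were matched by symbol for 37 of the 47 members, in 42 windows. The letters CACGTG, which read the same on both strands, occurred in windows of 13 of the 37 members (35.1%) and of 8.09% of 27025 genes with a window. Those 27025 genes include many that were not tested here, while every member was tested, so the shares compare unlike sets. The longer TCACGTG, searched on both strands and always overlapping CACGTG, occurred in 11 members (29.7%) and 4.29% of genes. Of the 20 copies of CACGTG in member windows, 16 began within 100 bases of the start site. The letters were in windows of 3 of the 9 matched members called higher (*Ctsd*, *Atp6v0e* and *Atp6v1a*), of neither of the 2 called lower, and of 10 of the 26 not called. *Ctse*, *Atp6v0d2* and *Ctsb*, also called higher, had no window here, so these shares leave them out. *Lamp1*, with 4 copies, was among the members not called, while *Ppt1* and *Lamp2* were called and had none. A match to these letters describes the window only. The 6 windows below, each with the first 20 bases from the start site, show 3 called members with the letters, 1 uncalled member with 4 copies, and 2 called members without them. Capitals mark CACGTG.
Ctsd (chr7:142387808-142388077, minus strand): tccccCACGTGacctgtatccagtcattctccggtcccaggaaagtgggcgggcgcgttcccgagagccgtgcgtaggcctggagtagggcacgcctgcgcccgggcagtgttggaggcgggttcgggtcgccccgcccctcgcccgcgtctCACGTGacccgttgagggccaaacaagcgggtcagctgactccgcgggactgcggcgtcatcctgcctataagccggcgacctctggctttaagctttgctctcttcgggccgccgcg
Atp6v0e (chr17:26676146-26676415, plus strand): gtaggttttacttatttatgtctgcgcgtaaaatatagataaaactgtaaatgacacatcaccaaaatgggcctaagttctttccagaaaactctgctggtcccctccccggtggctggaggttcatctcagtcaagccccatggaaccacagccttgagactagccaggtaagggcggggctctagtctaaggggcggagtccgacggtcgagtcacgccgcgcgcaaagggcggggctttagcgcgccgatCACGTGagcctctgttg
Atp6v1a (chr16:44139240-44139509, minus strand): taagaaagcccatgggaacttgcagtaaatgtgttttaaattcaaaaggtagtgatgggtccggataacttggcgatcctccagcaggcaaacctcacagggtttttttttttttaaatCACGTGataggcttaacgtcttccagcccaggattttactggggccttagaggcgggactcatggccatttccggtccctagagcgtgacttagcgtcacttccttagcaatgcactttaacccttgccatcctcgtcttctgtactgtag
Lamp1 (chr8:13158911-13159180, plus strand): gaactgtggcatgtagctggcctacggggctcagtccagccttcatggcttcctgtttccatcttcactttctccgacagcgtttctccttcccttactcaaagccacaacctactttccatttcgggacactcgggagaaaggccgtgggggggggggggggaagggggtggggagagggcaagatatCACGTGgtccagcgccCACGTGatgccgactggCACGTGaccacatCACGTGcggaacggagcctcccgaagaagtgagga
Ppt1 (chr4:122835977-122836246, plus strand): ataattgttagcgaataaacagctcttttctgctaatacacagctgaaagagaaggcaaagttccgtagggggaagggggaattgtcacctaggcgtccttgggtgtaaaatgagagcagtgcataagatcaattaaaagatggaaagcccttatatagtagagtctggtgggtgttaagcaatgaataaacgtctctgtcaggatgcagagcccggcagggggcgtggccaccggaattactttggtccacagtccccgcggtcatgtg
Lamp2 (chrX:38456441-38456710, minus strand): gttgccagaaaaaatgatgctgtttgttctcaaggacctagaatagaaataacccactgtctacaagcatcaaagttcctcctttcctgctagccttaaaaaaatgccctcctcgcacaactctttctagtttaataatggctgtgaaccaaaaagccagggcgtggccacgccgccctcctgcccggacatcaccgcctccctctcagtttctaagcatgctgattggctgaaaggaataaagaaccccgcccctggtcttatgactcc

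Among the 17 pump genes, 4 rose and none fell in the test, and 13 were not called. *Atp6v0d2* changed most. It encodes the d2 form of the V0 subunit d, known from osteoclasts and macrophages (chr4:19876841-19922605, minus strand, GRCm38). Its level was 29.2, 39.9 and 36.9 CPM in the wild-type libraries and 57.8, 63.9 and 55.2 CPM in the *Scd2*-m/-m libraries. The groups did not overlap, the *Scd2*-m/-m libraries being the higher (log2 fold change 0.74, SE 0.10, FDR = 0.000531). The widely expressed d1 gene, *Atp6v0d1*, was more abundant per length in both genotypes and had a log2 fold change of 0.14 (FDR = 0.109). Per kb of exon, *Atp6v0d2* made up 11.0%, 14.8% and 13.5% of the summed level of the d genes in wild-type libraries and 17.7%, 19.8% and 18.2% in *Scd2*-m/-m libraries. The groups did not overlap, with means of 13.1% ± 1.91 and 18.6% ± 1.11 (SD, n = 3; exact two-sided permutation test, p = 0.1, the smallest p that 3 against 3 libraries allow).

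The other pump genes called were *Atp6v1d*, *Atp6v1a* and *Atp6v0e*. *Atp6v1d* encodes subunit D of the central rotor (chr12:78840725-78861638, minus strand). Its level was 76.4, 78.8 and 81.2 CPM in the wild-type libraries and 97.7, 96.8 and 97.7 CPM in the *Scd2*-m/-m libraries. The *Scd2*-m/-m libraries were all higher and nearly equal (log2 fold change 0.31, SE 0.06, FDR = 0.00191). *Atp6v1a*, the subunit that hydrolyses ATP, rose from 398 ± 34.9 to 485 ± 37.6 CPM (SD, n = 3; log2 fold change 0.29, SE 0.08, FDR = 0.0192). This call was lost without wild-type replicate 2 (0.24, FDR = 0.128), wild-type replicate 3 (0.26, FDR = 0.0556), *Scd2*-m/-m replicate 2 (0.28, FDR = 0.0997) or *Scd2*-m/-m replicate 3 (0.24, FDR = 0.0744). *Atp6v0e*, a small V0 subunit, rose from 174 ± 6.30 to 206 ± 8.58 CPM (log2 fold change 0.25, SE 0.06, FDR = 0.0105), and lost its call without wild-type replicate 2 (0.24, FDR = 0.068).

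The 13 uncalled pump genes had log2 fold changes between -0.13 and 0.20, and their 95% intervals lay between -0.27 and 0.34. In V0, *Atp6v0a1* stood at 0.20 (FDR = 0.0549), *Atp6v0c*, the ring that carries the protons, at 0.01, *Atp6v0b* at -0.12 and *Atp6v0a2* at -0.13. In V1, *Atp6v1b2*, the partner of the catalytic subunit, stood at 0.17 (FDR = 0.0784), and *Atp6v1g1*, *Atp6v1h*, *Atp6v1c1*, *Atp6v1e1* and *Atp6v1f* lay between -0.05 and 0.12. The accessory gene *Atp6ap2* stood at 0.16 (FDR = 0.0626) and *Atp6ap1* at -0.11. Over all 17 pump genes the log2 fold changes ran from -0.13 to 0.74. In wild-type cells the level per kb of exon ran from 5.49 CPM for *Atp6v1h* to 224 CPM for *Atp6v0b*. *Tcirg1*, the a3 subunit gene, is not a member; per kb it held 70.0% ± 0.498 of the level of *Atp6v0a1*, *Atp6v0a2* and *Tcirg1* in wild-type libraries and 69.0% ± 1.34 after deletion (SD, n = 3).

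**Figure D2:**
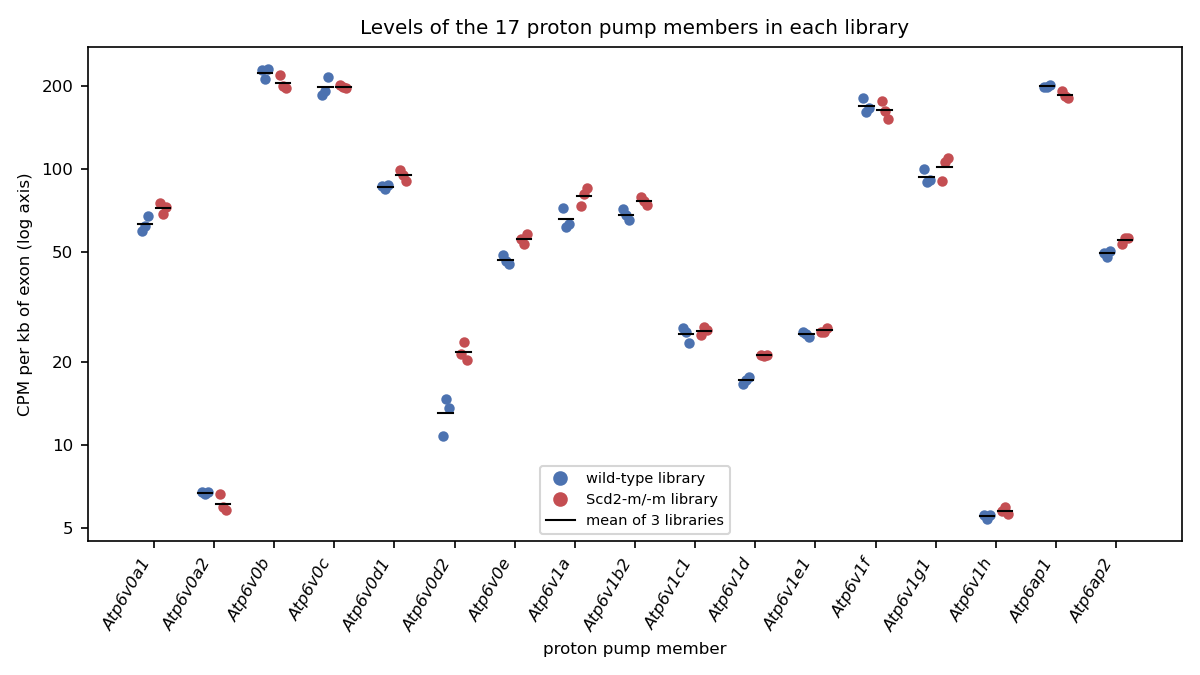
Level of the 17 pump members in each library, in CPM per kb of exon on a log axis, with wild-type libraries in blue, *Scd2*-m/-m libraries in red and a line at the mean of 3. *Atp6v0d2* moved from a mean of 13.0 to 21.7 CPM per kb, and the log2 fold changes of the other members were smaller in size. The groups did not overlap for 12 of the 17 members, or 70.6%, against 34.9% of all genes tested. *Scd2*-m/-m libraries were higher for 10 of these and lower for 2.

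Of the 14 protease genes, 5 rose, 1 fell and 8 were not called. The largest change belonged to one of the scarcest. *Ctse* encodes cathepsin E, an aspartic protease of endosomes (chr1:131638306-131675505, plus strand). Its level was 3.87, 3.32 and 3.29 CPM in the wild-type libraries and 8.08, 7.94 and 8.98 CPM in the *Scd2*-m/-m libraries. The groups did not overlap (log2 fold change 1.26, SE 0.12, FDR = 1.05e-05), and the gene held 0.00706% of member counts in wild-type cells and 0.0147% after deletion. *Ctsk* encodes cathepsin K, the collagen-degrading protease of osteoclasts (chr3:95499256-95509362, plus strand). Its level was 5.74, 7.20 and 5.71 CPM in the wild-type libraries and 7.44, 8.59 and 9.48 CPM in the *Scd2*-m/-m libraries. The lowest *Scd2*-m/-m library was just above the highest wild-type library (log2 fold change 0.45, SE 0.13, FDR = 0.0254). The *Ctsk* call was lost without wild-type replicate 1 (0.40, FDR = 0.0698), wild-type replicate 3 (0.39, FDR = 0.0792), *Scd2*-m/-m replicate 2 (0.45, FDR = 0.096) or *Scd2*-m/-m replicate 3 (0.37, FDR = 0.0983).

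The 2 most abundant members also rose. *Ctsb* encodes cathepsin B, a cysteine protease (chr14:63122462-63145923, plus strand). Its level was 12833, 12379 and 13453 CPM in the wild-type libraries and 17088, 15911 and 15464 CPM in the *Scd2*-m/-m libraries. Every *Scd2*-m/-m library was above every wild-type library (log2 fold change 0.33, SE 0.07, FDR = 0.00746), and the call was lost without wild-type replicate 2 (0.30, FDR = 0.0577). *Ctsd* encodes cathepsin D, the main aspartic protease of the lysosome (chr7:142375911-142388038, minus strand). Its level was 8313, 8269 and 8960.3 CPM in the wild-type libraries and 10963, 11106 and 10491 CPM in the *Scd2*-m/-m libraries. These groups did not overlap either (log2 fold change 0.35, SE 0.07, FDR = 0.00347). Exons of *Ctsb* overlap those of *Fdft1* on the opposite strand, which had a mean of 32.5 CPM in wild-type cells, and exons of *Ctsd* overlap those of Gm49369 on the same strand. Exons of 13 members, 3 of them called, overlap another gene, and the sources used here do not say whether the counting used strand.

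The serine protease *Tpp1*, which removes tripeptides from protein ends, rose from 393 ± 24.3 to 455 ± 11.98 CPM (SD, n = 3; log2 fold change 0.21, SE 0.06, FDR = 0.0336). Its call held when wild-type replicate 3 was left out and was lost without any of the other 5 libraries, with log2 fold changes of 0.17 to 0.23 and FDR of 0.0516 to 0.125. *Ctsc* encodes cathepsin C, which activates the serine proteases of neutrophil and other granules (chr7:88278085-88310888, plus strand), and it fell. Its level was 574, 573 and 595 CPM in the wild-type libraries and 443, 455 and 534 CPM in the *Scd2*-m/-m libraries. *Scd2*-m/-m replicate 3 was nearest to the wild-type libraries (log2 fold change -0.28, SE 0.07, FDR = 0.0163). The *Ctsc* call was lost without wild-type replicate 2 (-0.29, FDR = 0.0646), *Scd2*-m/-m replicate 1 (-0.23, FDR = 0.0567) or *Scd2*-m/-m replicate 2 (-0.25, FDR = 0.114).

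The remaining 8 proteases were not called. *Ctss*, encoding cathepsin S, which trims the invariant chain of MHC class II, was measured at 3042, 2954 and 3029 CPM in the wild-type libraries and 3112, 3451 and 3616 CPM in the *Scd2*-m/-m libraries. The groups did not overlap, yet the difference did not pass the test (log2 fold change 0.17, SE 0.07, FDR = 0.117; 95% interval 0.02 to 0.33). *Ctsl*, a cysteine protease of broad activity, ranged from 796 to 1139 CPM in wild-type and from 1097 to 1194 CPM in *Scd2*-m/-m libraries (log2 fold change 0.26, SE 0.11, FDR = 0.125). *Ctso* stood at 0.13, *Ctsf* and the asparaginyl protease gene *Lgmn* both at -0.06, the serine carboxypeptidase gene *Ctsa* and *Ctsz* at -0.08 and -0.08, and *Ctsh* at -0.11, all log2 fold changes. Among these 8 genes *Ctsl* and *Ctsf* had the broadest intervals, 0.03 to 0.50 and -0.38 to 0.27.

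**Figure D3:**
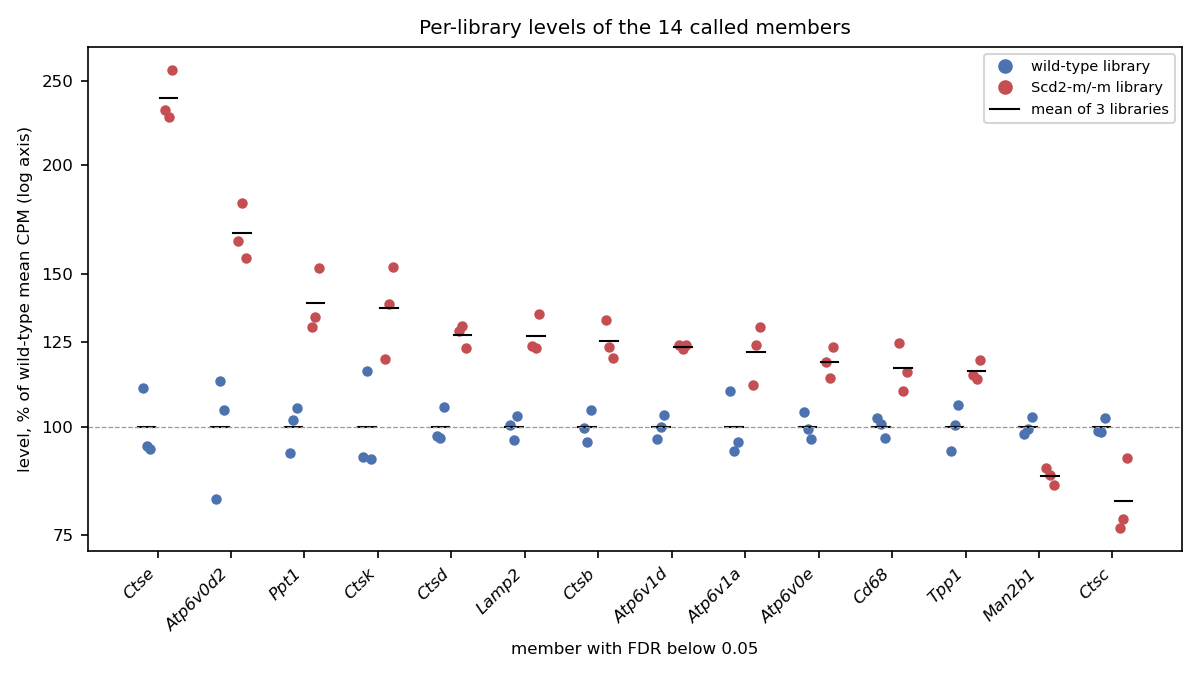
Level of the 14 called members in each library as a percentage of the wild-type mean CPM, on a log axis, with wild-type libraries in blue, *Scd2*-m/-m libraries in red and a line at the mean of 3. The groups do not overlap for any of the 14, and *Scd2*-m/-m replicate 1 of *Atp6v1a* and of *Ctsk* lies closest to the wild-type points among the rises.

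In the other hydrolases 1 of 6 genes rose, 1 fell and 4 were not called. *Ppt1* encodes a thioesterase that removes palmitate from proteins (chr4:122836242-122859175, plus strand). Its level was 108, 118 and 121 CPM in the wild-type libraries and 151, 155 and 176 CPM in the *Scd2*-m/-m libraries. Every *Scd2*-m/-m library was above the wild-type range (log2 fold change 0.47, SE 0.07, FDR = 0.000424). Its exons overlap those of *Cap1* on the opposite strand, a gene with means of 747 and 794 CPM. *Man2b1*, the lysosomal alpha-mannosidase (chr8:85083270-85098282, plus strand), was the other member to fall. Its level was 1183, 1198 and 1239 CPM in the wild-type libraries and 1080.0, 1063 and 1034 CPM in the *Scd2*-m/-m libraries. The groups were separate but close (log2 fold change -0.19, SE 0.06, FDR = 0.0479). The *Man2b1* call held only when wild-type replicate 1 was left out: without any of the other 5 libraries the log2 fold change was -0.20 to -0.17 and the FDR 0.0575 to 0.165. *Naglu*, *Lipa*, *Gaa* and *Gusb*, which act on heparan sulfate, cholesteryl esters, glycogen and glucuronides, had log2 fold changes of 0.15, 0.12, 0.06 and 0.01.

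Of the 8 membrane proteins 2 rose and 6 were not called. *Lamp2*, which also serves chaperone-mediated autophagy (chrX:38401357-38456454, minus strand), was measured at 618, 593 and 633 CPM in the wild-type libraries and 762, 756 and 829.6 CPM in the *Scd2*-m/-m libraries. These groups did not overlap (log2 fold change 0.35, SE 0.06, FDR = 0.00191). Its relative *Lamp1* was measured at 2499, 2455 and 2617 CPM in the wild-type libraries and 2962, 2707 and 2596 CPM in the *Scd2*-m/-m libraries. The lowest *Scd2*-m/-m library fell below the highest wild-type library (log2 fold change 0.13, SE 0.07, FDR = 0.249; 95% interval -0.02 to 0.28). *Cd68*, a macrophage member of the LAMP family, rose from 2158 ± 56.3 to 2519 ± 162 CPM (SD, n = 3; log2 fold change 0.22, SE 0.07, FDR = 0.0379), a call that held without wild-type replicate 1 and was lost without any of the other 5 libraries (0.17 to 0.27, FDR 0.0632 to 0.128). The cystine exporter gene *Ctns*, the tetraspanin gene *Cd63*, the calcium channel gene *Mcoln1*, the cholesterol transporter gene *Npc1* and *Scarb2*, the receptor that sorts glucocerebrosidase, stood at 0.12, 0.08, 0.06, -0.02 and -0.09.

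Neither luminal protein was called. *Grn*, the gene of progranulin, was measured at 3103, 3028 and 3215 CPM in the wild-type libraries and 3669, 3327 and 3239 CPM in the *Scd2*-m/-m libraries, with groups that did not overlap (log2 fold change 0.13, SE 0.07, FDR = 0.232). *Npc2*, which hands cholesterol to NPC1, stood at -0.11 (FDR = 0.272). In all, 15 of the 33 uncalled members had groups that did not overlap, 11 of them higher and 4 lower. Among all uncalled genes the groups did not overlap for 21.3%, with 10.1% higher and 11.2% lower.

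Together the members took 4.84%, 4.81% and 5.01% of all counts on genes in wild-type libraries and 5.84%, 5.73% and 5.59% in *Scd2*-m/-m libraries. The means were 4.89% ± 0.109 and 5.72% ± 0.128 (SD, n = 3), and the groups did not overlap. Most of that difference lay in a pair of genes. Summed over members the level rose from 49435 to 56591 CPM, a net gain of 7156 CPM, of which *Ctsb* and *Ctsd* made up 78.3%. The other 45 members held 2.77% ± 0.0187 of wild-type library counts, and 2.99% ± 0.0249 after deletion. Since *Lyz2* and *Apoe* are abundant and were both lower, the share was also taken without them in the total, and the difference between genotypes changed from 0.834 to 0.745 percentage points.

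Within the group's own counts *Ctsb* moved from 26.1% to 28.5% and *Ctsd* from 17.2% to 19.2%. *Grn* went from 6.30% to 6.02%, *Ctss* from 6.09% to 6.00% and *Lamp1* from 5.10% to 4.87%. These 5 genes held 60.8% of member counts in wild-type cells, and 64.6% after deletion. By role, the proteases took 61.9% and 64.6%, the membrane proteins 13.5% and 13.2%, the luminal proteins 9.57% and 8.68%, the pump 8.32% and 7.68%, and the other hydrolases 6.65% and 5.85%. Each of 28 members held under 1% in wild-type cells. Per kb of exon the order in wild-type cells was *Ctsd* at 3621 CPM, *Ctss* at 2215, *Ctsb* at 2130.0 and *Cd68* at 1716, so *Ctsb* led by counts but not by level per length.

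**Figure D4:**
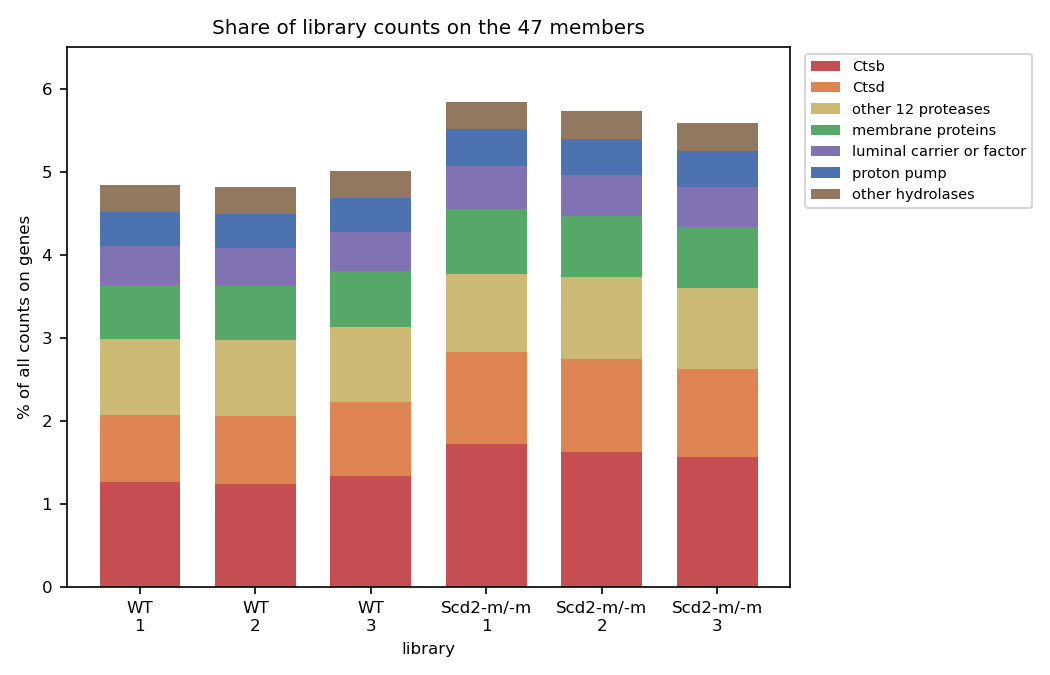
Counts on the 47 members as a percentage of all counts on genes in each library (bars stacked by gene or role). The 3 *Scd2*-m/-m bars reach 5.59% to 5.84% and the 3 wild-type bars 4.81% to 5.01%, and the *Ctsb* and *Ctsd* blocks are the ones that grow most.

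Lysosomal genes outside the group were read from 6 lists. Of 85 tested, 21 rose and 11 fell, or 24.7% and 12.9%, with a median log2 fold change of 0.09. Of all genes tested, 9.65% were called higher and 7.84% lower. Without *Scd2*-m/-m replicate 1 the counts were 22 and 8. They were 13 and 5 without wild-type replicate 2, 16 and 7 without wild-type replicate 3, and 14 and 4 without *Scd2*-m/-m replicate 2. Fewer genes were also called over all genes tested in every fit that left out a library. Among 33 other hydrolases and activators 8 rose and 5 fell (6 and 2 without wild-type replicate 2, 8 and 3 without wild-type replicate 3, 7 and 2 without *Scd2*-m/-m replicate 2). *Arsb* (sulfatase; log2 fold change 0.76, SE 0.07, FDR = 1.11e-05) and *Glb1* (beta-galactosidase; log2 fold change 0.55, SE 0.06, FDR = 2.52e-05) rose, while the acid phosphatase gene *Acp2* fell (log2 fold change -0.41, SE 0.06, FDR = 0.000205). Among 21 other membrane genes 7 rose and 3 fell, and leaving out single libraries gave 4 to 7 and 1 to 3, with the fewest (4 and 1) without *Scd2*-m/-m replicate 2. The calcium channel genes *Mcoln2* (log2 fold change 0.83, SE 0.08, FDR = 7.16e-06) and *Mcoln3* (log2 fold change 0.83, SE 0.16, FDR = 0.00254) rose, where *Mcoln1* had stood at 0.06. The metal transporter gene *Slc11a1* fell (log2 fold change -0.47, SE 0.06, FDR = 6.64e-05).

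Of 3 other pump genes tested, *Atp6v1g2* fell (log2 fold change -0.41, SE 0.11, FDR = 0.018), a call lost without wild-type replicate 2 (FDR = 0.0933), wild-type replicate 3 (FDR = 0.0517) or *Scd2*-m/-m replicate 2 (FDR = 0.0966). The other two, *Tcirg1* (log2 fold change 0.10) and the scarce *Atp6v0e2* (log2 fold change 1.05, SE 0.45, FDR = 0.131; at most 0.458 CPM in any library), were not called. In the mannose 6-phosphate and sorting route 1 of 9 genes was called, the sorting receptor gene *Sorl1*, which fell (log2 fold change -0.69, SE 0.08, FDR = 3.6e-05). Of 5 inhibitors of cysteine cathepsins tested, *Cst7* and *Cstb* rose. *Cst7* was scarce, with at most 1.34 CPM in any library (log2 fold change 1.45, SE 0.28, FDR = 0.00268). *Cstb* had a log2 fold change of 0.24 (SE 0.06, FDR = 0.0215). The *Cstb* call held without wild-type replicate 1 or *Scd2*-m/-m replicate 1 and was lost without any of the other 4 libraries (FDR 0.0607 to 0.115). Among 14 regulators of lysosomal genes 4 rose and 1 fell. Without wild-type replicate 2, wild-type replicate 3, *Scd2*-m/-m replicate 2 or *Scd2*-m/-m replicate 3 the counts were 2 and 0, and without *Scd2*-m/-m replicate 1 they were 5 and 0. The Rag GTPase gene *Rragd* (log2 fold change 0.89, SE 0.12, FDR = 0.000246) and *Fnip2*, which encodes a partner of folliculin (log2 fold change 0.68, SE 0.08, FDR = 8.26e-05), changed most, and *Rraga* rose too (log2 fold change 0.23, SE 0.07, FDR = 0.0257). *Zkscan3* and *Mitf* were called, lower and higher. *Rraga* and *Mitf* lost their calls in each of the 4 fits that gave 2 and 0, and *Zkscan3* in those and without *Scd2*-m/-m replicate 1. *Tfeb* and *Tfe3* had log2 fold changes of 0.03 and -0.12 and were not called.

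**Figure D5:**
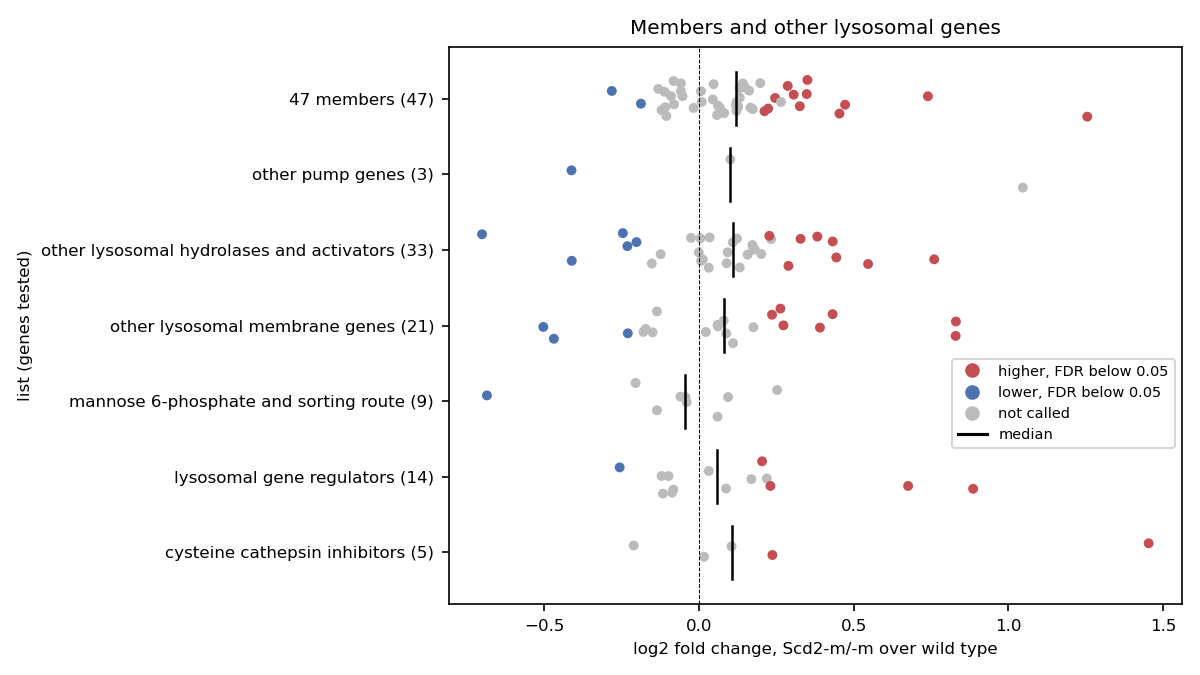
Log2 fold change, *Scd2*-m/-m over wild type, of the 47 members and of the tested genes of 6 other lysosomal lists (1 point a gene, black line at the median; red called higher, blue called lower, grey not called). The medians lie between -0.04 and 0.12, and the members, the hydrolases, the membrane genes and the regulators have calls in both directions.

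Marker genes of other cell types were read beside these changes. Of 8 macrophage markers 5 were lower and none higher, with *Csf1r* at 6740 to 7310 CPM in wild-type and 5344 to 5482 CPM in *Scd2*-m/-m libraries, so that defining markers stayed abundant in both. All 8 markers of dividing cells were higher, with a summed level of 47.4 to 57.8 CPM in wild-type and 136 to 142 CPM in *Scd2*-m/-m libraries. Of 9 neutrophil and precursor markers tested 6 were higher (sums of 22.5 to 26.0 and 35 to 45.04 CPM), 5 or 6 when single libraries were left out. *Ngp* rose from 2.51 ± 0.789 to 8.42 ± 1.66 CPM, *S100a9* from 2.79 ± 0.359 to 8.74 ± 1.53 CPM and *Ltf* from 0.862 ± 0.123 to 2.36 ± 0.262 CPM (SD, n = 3), and the median log2 fold change of the 9 was 1.25. *Mmp8*, the largest part of the wild-type sum, had means of 12.5 and 10.1 CPM and was not called, and *Ly6g* stood at no more than 0.0358 CPM in any library. Dendritic cell markers summed to 1.31 to 1.91 and 2.21 to 3.41 CPM (2 of 6 higher, 1 without wild-type replicate 2 or *Scd2*-m/-m replicate 2), and B cell markers to 2.14 to 3.77 and 5.33 to 7.02 CPM (2 of 3 higher, 1 on leaving out each wild-type library in turn or *Scd2*-m/-m replicate 1). Mast cell, T or NK cell, fibroblast and erythroid markers each summed to at most 2.14 CPM with no call. What part these cells have in the changes of the 47 members was not tested.

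*Ctsk* and *Atp6v0d2* are also known as osteoclast genes, so the osteoclast list was read beside them. None of its 7 tested genes rose and 2 fell (1 without wild-type replicate 2, *Scd2*-m/-m replicate 2 or *Scd2*-m/-m replicate 3). *Calcr* had no count in any library, and *Acp5* stood at 14.6 to 16.6 CPM in wild-type and 13.7 to 17.1 CPM in *Scd2*-m/-m libraries. The summed level of the list was 366 to 405 CPM in wild-type and 302 to 325 CPM in *Scd2*-m/-m libraries.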

How the data were processed

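Poly(A)-selected RNA of 3 WT and 3 Scd2-KO BMDM samples was sequenced, 1 library each, and grouped by the genotype label. The authors aligned reads with STAR to an Ensembl primary assembly and deposited whole-number counts per gene, not normalized. The counting tool and whether it used strand: not given in the sources used here. A deposited table of the authors' own comparison (fold changes, p-values) was not used; the submitters' processing notes name edgeR and limma.

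Of 40757 entries, 276 repeated a gene and were removed. Counts from 1 to 20 were even in 60.9% to 64.9% of cases, so what 1 count stands for is unclear. Genotypes were compared with edgeR 4.0.16 in R 4.3.3 (filterByExpr, TMM, robust glmQLFit, glmQLFTest), with Benjamini-Hochberg adjustment over 14778 genes (FDR) and a call at FDR below 0.05. CPM are scaled by TMM. The SE is the size of the log2 fold change over the square root of F. Lengths and coordinates come from GENCODE M21 (GRCm38), which may differ from the annotation counted. The lowest member count in a library was 153, and 45 members had 300 or more in every library. The steps were tested on simulated data. Of 42 RefSeq promoter windows of 37 members, 32 had their first transcribed bases in a GENCODE transcript of the gene.

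Named in full were the called members with the 8 largest changes in each direction and the 5 with the largest shares of member counts, with at most 4 called genes for each other list. Some genes that this rule names are not reported here. *Zkscan3*, *Atp6v0e2*, *Tfeb*, *Tfe3*, *Apoe* and the marker genes named fall outside this rule and were picked with their values in view. *Tcirg1* is named as an alternative a subunit. The members and lists were chosen with earlier results of these data known. Alternatives were RLE and upper-quartile factors, DESeq2 1.42.0, limma-voom (limma 3.58.1), other count filters, a replicate block and leaving out each library.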

Additional observations from a re-analysis of the deposited data

How the results depend on the processing

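Across 13 other settings 6 of the 14 called members stayed called in all: *Ctse*, *Atp6v0d2*, *Ppt1*, *Ctsd*, *Lamp2* and *Atp6v1d*. With all 6 libraries kept, RLE factors, DESeq2, limma-voom and a filter keeping every gene with a count kept all 14 calls, and DESeq2 and limma-voom each called 15, *Atp6v0a1* being the addition. Upper-quartile factors and a minimum of 10 counts in every library lost *Man2b1*, leaving 1 member lower. Leaving out a library gave 7 to 14 members called, 7 to 13 higher and 0 to 2 lower, and 1440 to 2567 genes called in all against 2585. The fewest calls came without WT replicate 2 (7 members, 1490 genes) and without Scd2-KO replicate 2 (8 members, 1440 genes). The cause was not tested. *Scd2* ranged from -0.83 to -0.48 and was called only without Scd2-KO replicate 1. Uncalled members that changed sign there were *Atp6v0c* (-0.0363 to 0.0735), *Atp6v1c1* (-0.0049 to 0.0864), *Ctsf* (-0.216 to 0.0869), *Gusb* (-0.0186 to 0.0282) and *Npc1* (-0.0472 to 0.0032). Without *Ctsb* and *Ctsd* among the members, a choice made after seeing the data, the difference in library share was 0.220 percentage points, against 0.834 with them.

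Same-numbered libraries deviated together weakly or not at all (correlations 0.053, -0.02 and 0.04), and such values cannot show whether the numbers pair them. With the replicate block 17 members were called, 15 higher and 2 lower, and 2974 genes. WT replicate 1 and WT replicate 3 each correlated best with the Scd2-KO library of the same number, and WT replicate 2 with Scd2-KO replicate 3. The 95% intervals of uncalled members reach from -0.38 (*Ctsf*, 710 to 1122 counts a library) to 0.50 (*Ctsl*, 40452 to 67010 counts, with a CV of 18.1% among wild-type libraries) on the log2 scale.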
